A study of Mus musculus with 32 samples.

Results

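CD8 T cells taken from mouse mammary tumors at week 3 were compared with those taken at week 2, across all genes. The comparison used 6 of the 32 RNA-seq libraries of the study, 3 labelled week 2 (replicates 1, 2 and 3) and 3 labelled week 3 (replicates 1, 3 and 4), chosen by cell type and time point in the labels. The tumors belong to the MMTV-PyMT model, in which a mammary promoter drives a viral oncogene and breast cancer develops. The study collected tumor cells and CD8 T cells at an early stage (week 2), a middle stage (week 3) and a late stage (week 4), to follow tumor growth and escape from immunity. All groups used here share this model and no further treatment is named for them. The labels do not say how the T cells were purified, how old the mice were, or whether replicates are different animals, and the p-values therefore cover only the spread between these libraries. The 3 CD8 T cell libraries of week 4 and the 7 tumor cell libraries of weeks 2 and 3 are given beside the comparison as context.

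CD8 T cells recognise peptides on other cells through the T cell receptor and can kill the cells that present them. In a tumor they may pass from a naive state, with lymph node homing genes, to an effector state with granzymes and cytokines, and on to an exhausted state with inhibitory receptors. They also meet low oxygen, scarce nutrients and damaged proteins, to which cells answer with heat shock chaperones and hypoxia genes.

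The label of the cells was checked against lineage markers. Cd8a, the alpha chain of the CD8 co-receptor, stood at 728 ± 51.5 TPM at week 2 and 741 ± 83.9 at week 3 (mean ± SD, n = 3 each here and below). TPM is a read number scaled for gene length and for the library total. In tumor cells Cd8a was at 13.5 ± 6.05 TPM at week 2 (n = 3) and 7.18 ± 3.56 at week 3 (n = 4). Summed over 19 genes of the T cell receptor and T cell lineage, the level was 9656 to 10666 TPM at week 2 and 9168 to 10656 at week 3. Cd4, the co-receptor of helper T cells, was at 5.62 ± 4.65 and 4.93 ± 2.83 TPM. Epithelial genes were also present: the epithelial adhesion molecule Epcam stood at 12.6, 16.1 and 30 TPM at week 2 and at 36.2, 49.1 and 27.6 TPM at week 3. Week 3 replicate 4 lay below the highest week 2 library, so the groups overlapped. In these bulk samples, fewer cells of a type and less RNA per cell cannot be told apart.

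Reads could be recovered from the steps between TPM values for genes that held 92.0% to 93.7% of the TPM, and these genes held 21.3 to 35.2 megareads per library. Mitochondrially encoded genes took 3.56% to 4.67% of TPM at week 2 and 3.65% to 6% at week 3. On the log2 scale the libraries correlated at r = 0.967 to 0.98 within a week and at 0.951 to 0.983 between weeks 2 and 3, across genes, which are not independent replicates.

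Of 13350 genes tested, 6 rose from week 2 to week 3 and 0 fell, which is 0.0449% of the genes (limma on log2(TPM + 1), Benjamini-Hochberg adjusted p under 0.05). The 6 genes were the stress-inducible chaperones Hspa1a and Hspa1b, the small nucleolar RNA genes Snord14c, Snord14d and Snord14e, and Ddit4, a stress gene that restrains the growth kinase complex mTORC1. At an unadjusted p under 0.05 there were 1583 genes higher (11.9%) and 242 lower (1.81%). The 3 week 3 libraries lay wholly above the 3 week 2 libraries for 2024 genes (15.2%) and wholly below them for 696 (5.21%). This balance depended on scaling. The median of all genes was 0.10 on the log2 scale as deposited and -0.01 after median-of-ratios rescaling, which moved the counts to 1298 genes above (9.72%) and 1539 below (11.5%). After quantile normalization they were 963 and 1624. The 6 calls were all also made under either rescaling. For 1 gene alone, an exact permutation test of 3 against 3 libraries cannot go below p = 0.1.

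Hspa1a and Hspa1b encode the inducible cytosolic Hsp70 chaperone, which binds unfolded proteins and is switched on by the heat shock factor. Hspa1a stood at 54.1, 54.8 and 85.4 TPM in the week 2 libraries and at 644, 459 and 437 TPM in those of week 3. All 3 week 3 libraries were above all 3 of week 2, without overlap. It rose by 2.98 on the log2 scale (SE 0.22, limma adjusted p = 0.000874). Hspa1b was at 139.9, 143 and 211 TPM at week 2 and at 1625, 1090.4 and 1061 TPM at week 3. Replicate 1 was the highest week 3 library for both genes. Hspa1b rose by 2.93 (SE 0.21, limma adjusted p = 0.000874). At week 4 the genes were at 389 ± 71.8 and 969.5 ± 155 TPM, and the log2 differences from week 3 of -0.39 and -0.36 did not pass (limma adjusted p = 0.287 and 0.311). In tumor cells (n = 3 at week 2 and n = 4 at week 3) their means were also higher at week 3, with overlap. Hspa1a was at 111 ± 52.1 and 185 ± 33.7 TPM there, and Hspa1b at 269 ± 102 and 524 ± 119 TPM. The genes lie near each other on the minus strand (GRCm38 chr17:34969190-34972156 for Hspa1a and chr17:34956436-34959238 for Hspa1b, both protein coding). They are near copies: 58.8% of the 50-base words of the Hspa1a transcript occur in Hspa1b and 62.3% the other way, so the split of reads between them is uncertain.

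The promoter of Hspa1a is shown because both copies rose together. The 250 bases before its start (RefSeq, GRCm38.p6, chr17:34972157-34972406, minus strand, 5′ to 3′) hold in capitals 1 match to a pair of inverted heat shock element units.
Hspa1a promoter: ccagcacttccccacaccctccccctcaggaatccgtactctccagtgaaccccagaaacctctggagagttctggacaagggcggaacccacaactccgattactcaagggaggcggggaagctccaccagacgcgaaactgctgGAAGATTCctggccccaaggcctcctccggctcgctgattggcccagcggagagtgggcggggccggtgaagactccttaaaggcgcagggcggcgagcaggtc
The motifs searched were GAANNTTC and TTCNNGAA, each its own reverse complement, so both strands are covered, and matches of one may overlap matches of the other. The match in Hspa1a begins 104 bases before the start, and Hspa1b has 1 match at the same distance. The promoter window of Ddit4 has 0 matches, and both windows of the heat shock gene Dnajb1 also have 0. That of Hspb1 has 2, and both windows of Hsph1 have 1 each. Of 32851 mouse promoters of this length, 12.8% have at least 1. A match describes the letters of the window and is no evidence of binding.

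**Figure D1:**
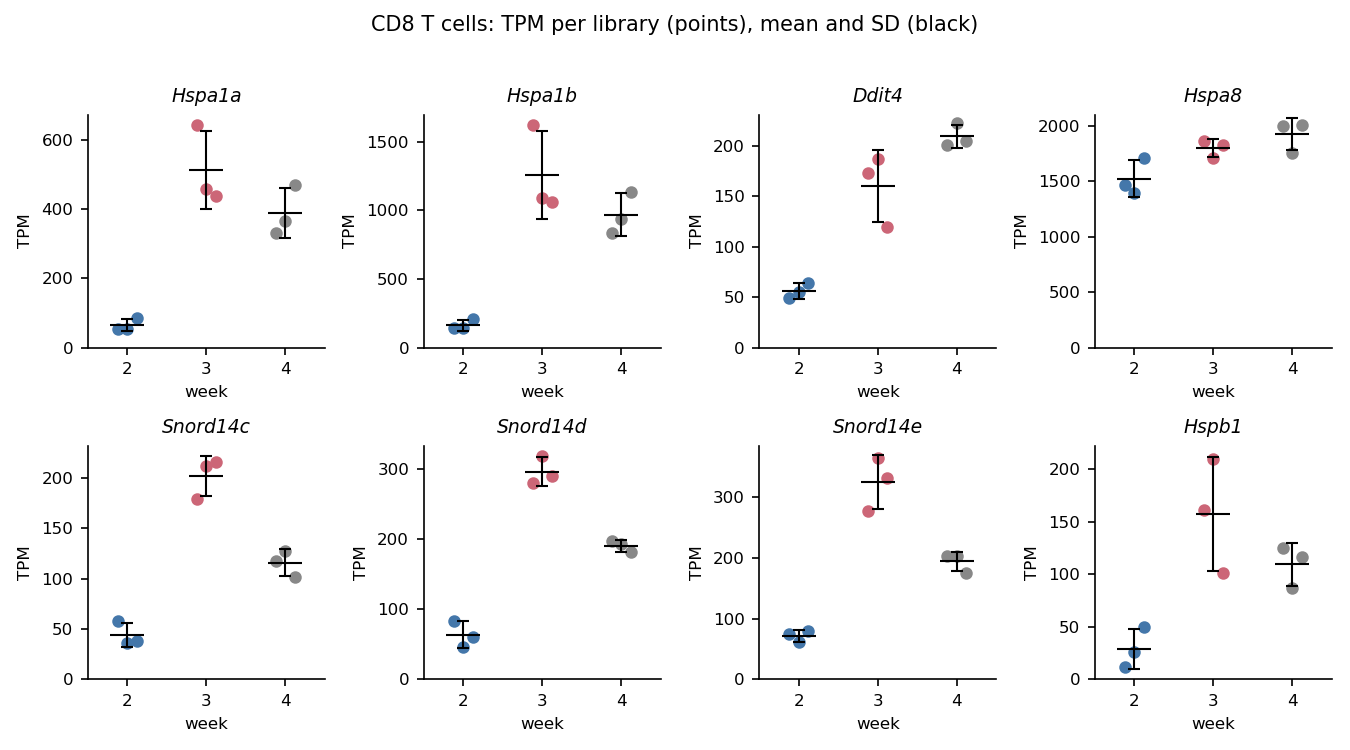
TPM (vertical axes, linear from 0) by week (horizontal axes) in the 9 CD8 T cell libraries for the 6 genes that rose, for Hspa8 and for Hspb1; points are libraries and black bars the mean ± SD of 3. For each of the 6 genes every week 3 point lies above every week 2 point, while Hspa8, the host gene of these 3 Snord14 genes, overlaps.

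The other heat shock and protein folding genes did not pass the test. Of 27 tested list members 2 rose, Hspa1a and Hspa1b, and 0 fell. The median of the list was 0.20 against 0.10 for all genes, and 8 members (29.6%) lay wholly above week 2 against 15.2% of all genes. After median-of-ratios rescaling 4 of 27 (14.8%) did, against 9.72% of all genes, and after quantile normalization 6 (22.2%) against 7.21%. Hspb1, a small heat shock protein, was at 11.9, 25.7 and 49.4 TPM at week 2 and at 161, 210.4 and 101 TPM at week 3. The groups did not overlap, but the log2 difference of 2.55 (SE 0.44) did not pass (limma adjusted p = 0.204). Hspb1 was higher in tumor cells, with 1086 ± 47.0 TPM at week 2 (n = 3) and 2132 ± 407 at week 3 (n = 4). Dnajb1, the Hsp40 partner that hands clients to Hsp70, was at 224 ± 30.8 and 373 ± 60.9 TPM (log2 difference 0.73, SE 0.20, limma adjusted p = 0.239). Hsph1, the nucleotide exchange factor of Hsp70, was at 156 ± 31.0 and 220.5 ± 48.3 TPM, and Hsp90aa1, the inducible Hsp90, at 659 ± 145 and 889.6 ± 133 TPM, with overlap in both. Hsf1, the factor that drives these genes, was at 76.0 ± 12.7 and 64.7 ± 3.53 TPM (log2 difference -0.22, SE 0.17, limma adjusted p = 0.624).

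**Figure D2:**
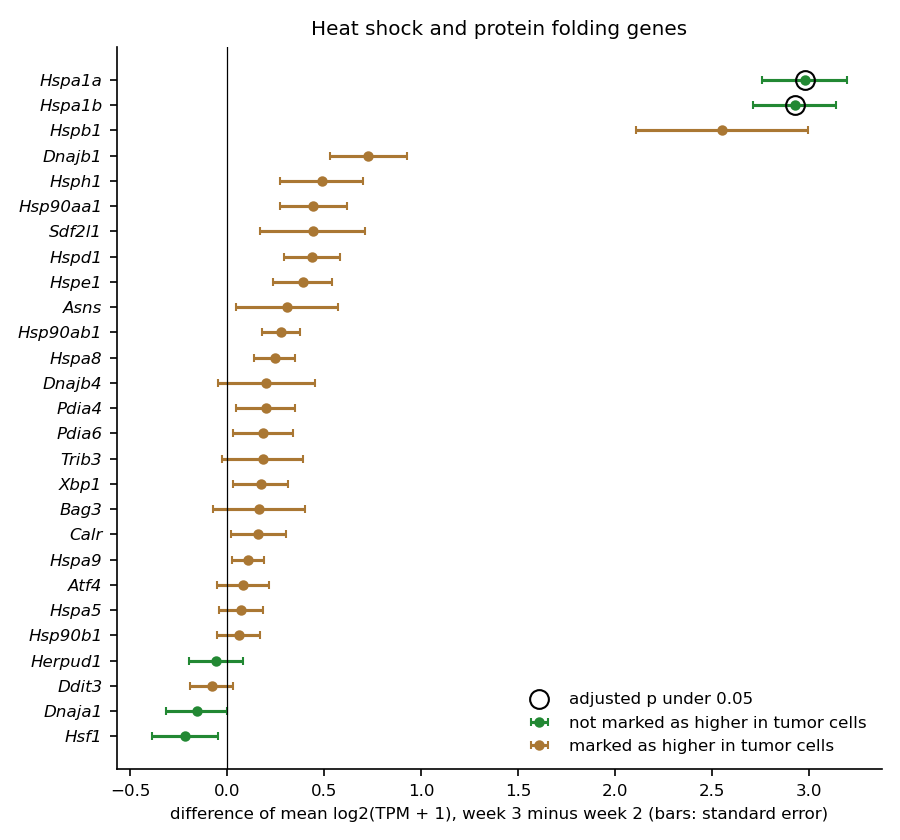
Difference of mean log2(TPM + 1), week 3 minus week 2 (horizontal axis, bars are the standard error of the fit), for the 27 tested heat shock and protein folding genes (vertical axis). Hspa1a and Hspa1b, circled, stand at 2.98 and 2.93, Hspb1 follows at 2.55 without passing the test, and the remaining genes lie at or below 0.73; brown genes had a higher mean TPM in tumor cells.

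The Snord14 genes encode box C/D small nucleolar RNAs, short RNAs that guide chemical marks on ribosomal RNA and, in this family, take part in making the small ribosomal subunit. The sequences of Snord14c, Snord14d and Snord14e are shown because the 3 genes rose together (GENCODE M21, GRCm38, 5′ to 3′). The capitals mark the C box near the 5′ end and the D box near the 3′ end.
Snord14c: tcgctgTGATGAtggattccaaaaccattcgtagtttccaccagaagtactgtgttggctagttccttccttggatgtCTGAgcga
Snord14d: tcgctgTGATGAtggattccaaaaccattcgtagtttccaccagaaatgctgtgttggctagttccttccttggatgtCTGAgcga
Snord14e: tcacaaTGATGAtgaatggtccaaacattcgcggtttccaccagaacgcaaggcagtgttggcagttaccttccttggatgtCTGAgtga
Snord14c and Snord14d are identical at 84 of 86 aligned positions (97.7%), and Snord14e matches either at 74 of 93 (79.6%). They lie on the plus strand at chr9:40803583-40803668, chr9:40803995-40804080 and chr9:40804748-40804837. These are introns 5, 6 and 8 of the Hspa8-201 transcript of Hspa8, and each also overlaps an exon of another annotated Hspa8 transcript. Reads of the same strand from a small nucleolar RNA and from such Hspa8 RNA cannot be told apart, and the libraries were made with an mRNA kit.

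Snord14e was at 73.7, 60.7 and 79.8 TPM at week 2 and at 278, 365 and 333 TPM at week 3. It rose by 2.17 on the log2 scale (SE 0.14, limma adjusted p = 0.000719), with no overlap. Snord14c was at 57.6, 35.8 and 37.8 TPM and then at 179, 212 and 216, and rose by 2.21 (SE 0.18, limma adjusted p = 0.00141). Every week 3 library was again above every week 2 library. Snord14d went from 83.6, 45.6 and 60.6 TPM to 280.2, 319 and 290.0, and rose by 2.25 (SE 0.18, limma adjusted p = 0.00141). The values rest on few reads, 44 to 106 per week 2 library and 135 to 443 per week 3 library over the 3 genes. At week 4 Snord14e fell by 0.74 from week 3 (limma adjusted p = 0.0291), to 194 ± 15.9 TPM, while Snord14c and Snord14d stood at 116 ± 13.4 and 190.5 ± 8.31 TPM without passing (limma adjusted p = 0.0524 and 0.0983).

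Hspa8, the constitutive Hsp70 that hosts these genes, was at 1462, 1394 and 1709 TPM at week 2 and at 1861, 1707 and 1825 TPM at week 3. The groups overlapped by a narrow margin and the log2 difference of 0.24 (SE 0.11) did not pass (limma adjusted p = 0.362). The fourth tested gene of the family, Snord14a, lies on another chromosome within the ribosomal protein gene Rps13 (chr7:116333171-116333257, minus strand). Snord14a was at 184, 194 and 219.6 TPM at week 2 and at 209.8, 179 and 219.8 TPM at week 3. Its groups overlapped fully, with a log2 difference of 0.03 (SE 0.28, limma adjusted p = 0.978). In sequence Snord14e is closer to Snord14a, at 76 of 92 aligned positions (82.6%), than to Snord14c or Snord14d (79.6% each). Of 93 other tested genes named Snord or Snora, 0 passed by limma. At an unadjusted limma p under 0.05, 15 were higher and 1 lower, against 11.9% and 1.81% of all genes. Wholly above week 2 lay 15 (16.1%), near the 15.2% of all genes. Their median was 0.14. Snord43, the nearest to the threshold, was at 11.8, 26.6 and 18.5 TPM and then at 60.2, 64.1 and 53.9 (log2 difference 1.66, SE 0.24, limma adjusted p = 0.085). In tumor cells (n = 3 at week 2 and n = 4 at week 3) the means of Snord14c, Snord14d and Snord14e were also higher at week 3, but with a wide spread. Snord14d was at 47.7 ± 7.10 and 209 ± 89.1 TPM without overlap, while Snord14c, at 27.3 ± 7.67 and 116 ± 66.6 TPM, and Snord14e, at 59.4 ± 3.63 and 176 ± 84.9 TPM, overlapped.

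Ddit4 is induced by low oxygen, glucocorticoids and other stress. It was at 48.7, 54.7 and 64.1 TPM at week 2 and at 173, 187 and 119 TPM at week 3, without overlap. It rose by 1.48 on the log2 scale (SE 0.17, limma adjusted p = 0.0205) and stood at 209 ± 11.3 TPM at week 4 (chr10:59949669-59951834, minus strand, protein coding). Among the settings without a replicate block, the call was lost without week 2 replicate 1 (adjusted p = 0.0769) or 2 (0.119), without week 3 replicate 1 (0.157) or 3 (0.0993), with no filter on low values (0.0799) and in a fit of weeks 2 and 3 only (0.202). Over all alternatives the adjusted p ran from 0.00256 to 0.202. Ddit4 was the 1 called gene with a higher mean level in tumor cells, at 194 ± 27.6 TPM at week 2 (n = 3) and 478 ± 72.3 at week 3 (n = 4).

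Other genes of glycolysis and hypoxia did not pass. In that list 1 of 30 tested genes rose, Ddit4, and 0 fell. The median was 0.34, and 11 members (36.7%) lay wholly above week 2 and 1 (3.33%) wholly below, against 15.2% and 5.21% of all genes. Of the 30 genes, 25 had a higher mean in tumor cells. Of these 25, 10 lay wholly above week 2, against 20.9% of all genes higher in tumor cells. Of the other 5, 1 lay wholly above and 1 wholly below, against 9.84% and 8.44% of all genes not higher in tumor cells. Vegfa, the growth factor of blood vessels, was at 8.29, 18.3 and 30.3 TPM and then at 48.7, 58.0 and 44.2 (log2 difference 1.52, SE 0.39, limma adjusted p = 0.239). Egln3, an oxygen sensor that is itself induced by low oxygen, was at 17.8 ± 6.84 and 38.9 ± 10.2 TPM. Slc16a1, a lactate transporter, was the member wholly below, at 86.6 ± 4.51 and 65.6 ± 7.41 TPM (log2 difference -0.40, SE 0.11, limma adjusted p = 0.239).

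Cell cycle genes had the highest median among the T cell, program and metabolism lists, at 0.72, or 0.60 after median-of-ratios rescaling and 0.51 after quantile normalization. Of 48 tested members 0 passed by limma. At an unadjusted limma p under 0.05, 29 were higher and 2 lower, against 11.9% and 1.81% of all genes. Wholly above week 2 lay 28 (58.3%), against 15.2% of all genes. Mki67, which only proliferating cells make in quantity, stood at 27, 21.4 and 22.7 TPM at week 2 and at 73.6, 68.6 and 45.3 TPM at week 3. The groups did not overlap, and the log2 difference of 1.34 (SE 0.29) had a limma adjusted p of 0.234. Bub1b, a kinase of the spindle checkpoint, was at 6.58 ± 0.919 and 19.4 ± 6.56 TPM. Mki67 and Bub1b both had a higher mean in tumor cells. Of the 36 members that were higher in tumor cells 26 lay wholly above week 2, against 20.9% of all such genes. The 12 members that were not higher in tumor cells had a lower median, 0.24, with 4 of them at or below 0 (Cdkn1b at -0.42, Cenpa at -0.40, Cdt1 at -0.19 and Pcna at -0.01). Of these 12, 2 lay wholly above and 2 wholly below week 2, against 9.84% and 8.44% of all genes not higher in tumor cells. Cdk6, the kinase that moves T cells out of rest, had the largest difference of these 12 and was chosen for it, at 23.1, 21.8 and 22.0 TPM and then 47.3, 41.2 and 30.7 (log2 difference 0.79, SE 0.16, limma adjusted p = 0.234). From week 3 to week 4 Cdk6 rose by 0.97 (limma adjusted p = 0.0187).

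Cytotoxic effector genes were higher in their means at week 3 but varied between libraries. Of 19 tested members 0 passed by limma, and 6 were higher at an unadjusted p under 0.05, against 11.9% of all genes. The median was 0.38, and 5 members (26.3%) lay wholly above week 2 against 15.2% of all genes. Gzmb, the granzyme that starts apoptosis in target cells, was at 100, 82.9 and 301 TPM at week 2 and at 1034, 459.9 and 454 TPM at week 3. Week 2 replicate 3 and week 3 replicate 1 were the high libraries of their weeks, and the groups did not overlap. The log2 difference of 2.14 (SE 0.52) did not pass (limma adjusted p = 0.239). Gzma, another granzyme, showed the same 2 high libraries, at 17.8, 15.1 and 94.5 TPM and then 202, 86.6 and 128 (log2 difference 2.11, SE 0.77, limma adjusted p = 0.281), and its groups overlapped. Prf1, the pore protein that lets granzymes in, was at 57.5 ± 15.9 and 59.0 ± 5.96 TPM, and Gzmk, a granzyme of memory cells, at 9.06 ± 12.2 and 9.31 ± 4.24 TPM. The sum over 19 NK cell markers was also higher, at 115 to 382 TPM at week 2 and 414 to 587 TPM at week 3. It includes Gzma and Eomes, which are also in T cell lists, and Gzma alone held 15.1 to 94.5 and 86.6 to 202 TPM. Of 14 tested NK cell markers 5 (35.7%) lay wholly above week 2, against 15.2% of all genes. After median-of-ratios rescaling 4 (28.6%) did, against 9.72%, and after quantile normalization 2 (14.3%), against 7.21%. Ncr1, which defines NK cells, was at 3.29 ± 1.97 and 9.58 ± 2.17 TPM, and the part of NK cells in the granzyme levels was not tested.

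Effector cytokines and chemokines had a median of 0.42, with 0 of 18 tested members past the threshold by limma. At an unadjusted limma p under 0.05, 7 were higher, against 11.9% of all genes. Wholly above week 2 lay 5 (27.8%), against 15.2% of all genes. Tnf, the inflammatory cytokine, was at 12.7, 14.5 and 20.3 TPM at week 2 and at 46.7, 42.1 and 33.0 TPM at week 3. The groups did not overlap, and the log2 difference of 1.31 (SE 0.21) had a limma adjusted p of 0.147, the lowest among list members that did not rise. Tnf had a higher mean in tumor cells, at 66.7 ± 15.0 TPM at week 2 (n = 3) and 153 ± 45.7 at week 3 (n = 4). Ifng, the main effector cytokine of CD8 T cells, was at 35.3, 29.2 and 79.9 TPM and then at 132, 94.9 and 74.2, with overlap (log2 difference 1.14, SE 0.39, limma adjusted p = 0.259). Ccl3, a chemokine of activated T cells, was at 7.72 ± 4.5 and 25.9 ± 7.01 TPM. Spp1, which encodes osteopontin, was at 141 ± 152 and 424 ± 82.1 TPM, and in tumor cells at 3804 ± 883 (n = 3) and 5435 ± 545 TPM (n = 4).

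Inhibitory receptors had a median of 0.41, with 0 of 19 tested members past the threshold by limma. At an unadjusted limma p under 0.05, 6 were higher and 1 lower, against 11.9% and 1.81% of all genes. As deposited 6 (31.6%) lay wholly above week 2 and 0 below, against 15.2% and 5.21% of all genes. After either rescaling 2 lay above and 2 below (10.5% each), near the 9.72% and 11.5% of all genes after median-of-ratios. Pdcd1, the receptor targeted by checkpoint antibodies, was at 118, 70.9 and 151 TPM at week 2 and at 171, 164 and 106 TPM at week 3. These overlapped (log2 difference 0.41, SE 0.28, limma adjusted p = 0.566). It rose by 1.88 from week 3 to week 4, to 537 ± 77.5 TPM (limma adjusted p = 0.0125). Tigit, another inhibitory receptor, was at 94.2 ± 13.5, 115 ± 25.2 and 290.4 ± 34.0 TPM over the 3 weeks, with limma adjusted p = 0.54 for the first step and 0.0097 for the second. Havcr2 (14.1 ± 6.45 and 16.6 ± 4.47 TPM), Lag3 (29.2 ± 8.23 and 32.9 ± 13.5) and Ctla4 (235 ± 58.9 and 191 ± 29.7), which mark exhausted or regulatory cells, overlapped between weeks 2 and 3. Cd244, a receptor of the SLAM family, was at 4.43 ± 2.42 and 14.7 ± 6.74 TPM, and Lilrb4a, a myeloid and T cell receptor, at 29.9 ± 14.5 and 64.8 ± 12.9 TPM, without overlap and without passing (limma adjusted p = 0.239 for both). Lilrb4a had a higher mean in tumor cells and Cd244 did not. Over all tested genes 184 rose (1.38%) and 172 fell (1.29%) from week 3 to week 4, 356 in all (2.67%), a contrast that shares the week 3 libraries.

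**Figure D3:**
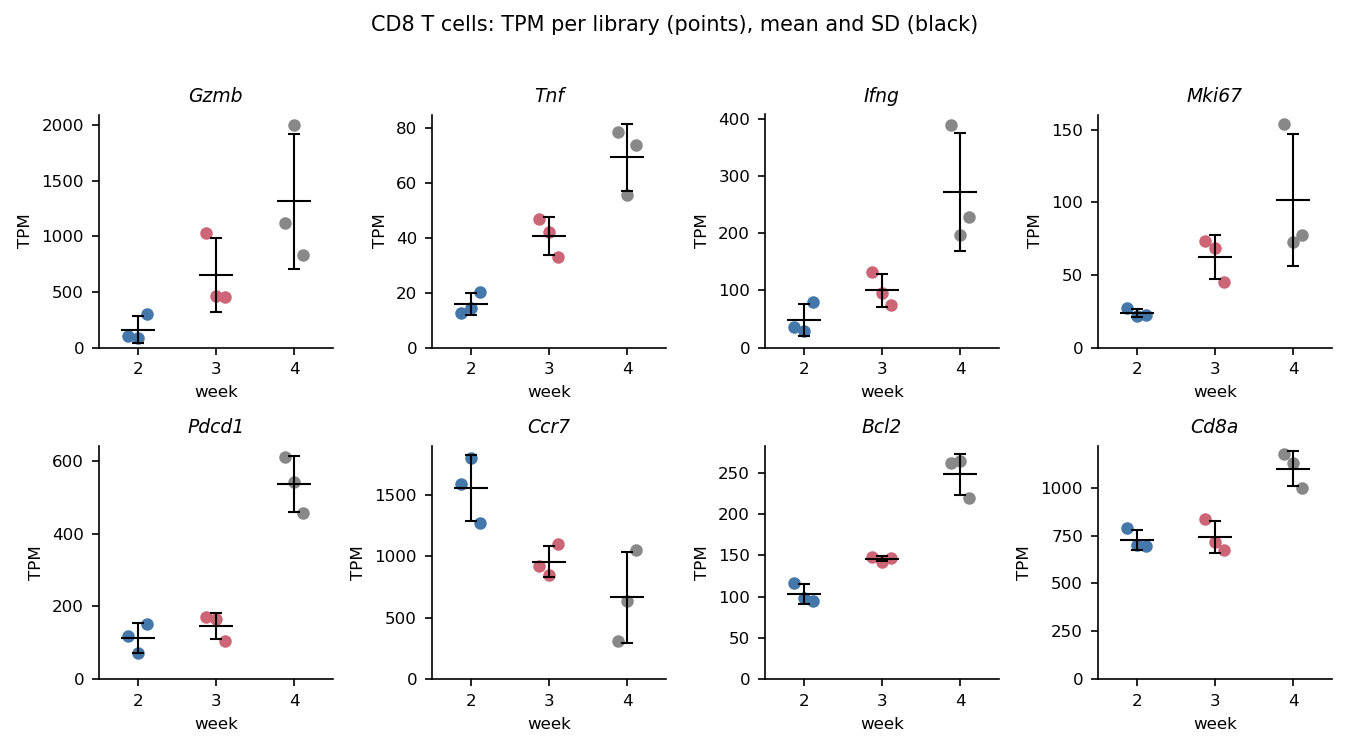
TPM (vertical axes, linear from 0) by week (horizontal axes) in the 9 CD8 T cell libraries for 8 T cell genes; points are libraries and black bars the mean ± SD of 3. Gzmb, Tnf, Mki67 and Bcl2 lie without overlap above week 2 at week 3 and Ccr7 lies below it, none past the threshold, Pdcd1 steps up at week 4 and Cd8a is level between weeks 2 and 3.

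Naive, memory and stem-like genes had a median of -0.22, which was negative under both rescalings. Of 26 tested members 0 passed by limma. At an unadjusted limma p under 0.05, 3 were higher and 1 lower, against 11.9% and 1.81% of all genes. Wholly above week 2 lay 4 members and wholly below it 4 (15.4% each, against 15.2% and 5.21% of all genes). After median-of-ratios rescaling 2 lay above and 8 below (7.69% and 30.8%, against 9.72% and 11.5%). Ccr7, which guides T cells to lymph nodes, was at 1583, 1803 and 1268 TPM at week 2 and at 920.3, 847 and 1095 TPM at week 3. Every week 3 library was below every week 2 library, but the log2 difference of -0.69 (SE 0.36) did not pass (limma adjusted p = 0.443). Bcl6, a transcription factor of stem-like and follicular T cells, was at 29.0 ± 7.87 and 16.2 ± 2.26 TPM (log2 difference -0.77, SE 0.26, limma adjusted p = 0.259). Tcf7, the factor of stem-like T cells, was at 1204, 1296 and 636 TPM and then at 934, 858 and 768, with overlap. Il7r, the receptor for the survival cytokine IL-7, was at 452 ± 87.7 and 368 ± 33.8 TPM. Bcl2, which blocks apoptosis, was at 117, 97.8 and 94.4 TPM and then at 149, 142 and 147 (log2 difference 0.50, SE 0.11, limma adjusted p = 0.235). It rose by 0.76 from week 3 to week 4 (limma adjusted p = 0.0132).

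Among the remaining T cell lists no tested member passed, and their shares are to be read against the 15.2% of all genes wholly above and 5.21% wholly below week 2. Of 15 costimulatory receptors 2 (13.3%) lay wholly above and 4 (26.7%) wholly below, with a median of -0.11. Cd27, a costimulatory receptor of naive and early activated T cells chosen after its values were seen, was at 534, 535 and 501 TPM and then at 371, 359 and 370.5 (log2 difference -0.51, SE 0.11, limma adjusted p = 0.234). It fell by 0.78 from week 3 to week 4 (limma adjusted p = 0.0115). Tnfrsf9, which marks recently stimulated CD8 T cells, was at 82.1 ± 53.0 and 159 ± 61.3 TPM, and Slamf7 at 7.68 ± 0.271 and 12.6 ± 0.571 TPM. Of 35 cytokine receptor and signal genes 18 were above 0 and 17 at or below it, with a median of 0.03, and 6 (17.1%) lay wholly above and 3 (8.57%) wholly below. The most different were Cish and Il12rb2. Cish, a feedback inhibitor of cytokine receptors, was at 16.3 ± 4.24 and 37.9 ± 11.6 TPM and Il12rb2, a chain of the IL-12 receptor, at 10.5 ± 1.00 and 23.2 ± 7.29 TPM, both without overlap (limma adjusted p = 0.234 for both). Of 27 activation and exhaustion transcription factors 7 (25.9%) lay wholly above and 0 below, among them Ikzf2 (17.0 ± 2.22 and 33.1 ± 13.4 TPM) and Irf8 (33.1 ± 16.3 and 52.4 ± 3.58 TPM), while Tox, a factor of exhausted cells, was at 29.1 ± 6.49 and 35.6 ± 8.45 TPM with overlap. Of 22 homing and residency genes 5 (22.7%) lay wholly above and 3 (13.6%) below. Those above included the collagen-binding integrin Itga1 (3.31 ± 0.699 and 8.44 ± 2.15 TPM) and the receptor Gpr34 (4.14 ± 2.21 and 10.1 ± 2.53 TPM). All 3 members with a higher mean in tumor cells, Itga1 among them, lay wholly above. Of the other 19, 2 lay wholly above and 3 wholly below, against 9.84% and 8.44% of all genes not higher in tumor cells. In the T cell receptor and lineage list 0 of 19 lay wholly above and 4 (21.1%) wholly below, with a median of -0.03. Cd3d, a signalling chain of the receptor, was at 571 ± 38.0 and 455 ± 25.6 TPM (limma adjusted p = 0.239), Cd3e at 777 ± 103 and 691 ± 115, and Cd8b1 at 784 ± 31.5 and 708 ± 13.4 TPM.

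Interferon response genes had a median of 0.34, with 0 of 42 tested members past the threshold by limma. At an unadjusted limma p under 0.05, 14 were higher and 0 lower, against 11.9% and 1.81% of all genes. Wholly above week 2 lay 17 (40.5%), against 15.2% of all genes. Oas2, a sensor of double-stranded RNA, was at 6.46, 5 and 4.12 TPM and then at 10.2, 9.62 and 8.28, without overlap (log2 difference 0.76, SE 0.20, limma adjusted p = 0.239). It fell by 1.94 from week 3 to week 4 (limma adjusted p = 0.00513). In that step 20 of the 42 members passed as lower and 0 as higher, against 1.29% and 1.38% of all genes. Oasl1, of the same family, was at 2.39 ± 0.959 and 5.46 ± 2.48 TPM. Of the 42 genes 37 had a higher mean in tumor cells, Oas2 and Oasl1 among them. All 17 that lay wholly above week 2 were among these 37, against 20.9% of all genes higher in tumor cells. Of the other 5 members 0 lay wholly above.

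Early response genes, which cells also switch on during tissue dissociation, had a median of 0.09, and 5 of 27 (18.5%) lay wholly above week 2, near the 15.2% of all genes, with 0 past the threshold. Jun, a subunit of the AP-1 transcription factor, was at 79.3, 139 and 89.7 TPM and then at 362, 277 and 219.7, without overlap (log2 difference 1.48, SE 0.32, limma adjusted p = 0.234). Atf3, a stress transcription factor, was at 31.6 ± 16.8 and 73.7 ± 21.9 TPM. Jun and Atf3 had higher means in tumor cells (n = 3 at week 2 and n = 4 at week 3). Jun was at 943 ± 381 and 1249 ± 104 TPM there, and Atf3 at 930 ± 150 and 792 ± 103 TPM. The part of tumor RNA in their levels was not tested. Fos, the partner of Jun, was at 414 ± 101 and 494 ± 114 TPM with overlap (log2 difference 0.26, limma adjusted p = 0.708). After median-of-ratios rescaling the list median was -0.03. Then 4 members (14.8%) lay wholly above and 6 (22.2%) wholly below week 2, against 9.72% and 11.5% of all genes. After quantile normalization the median was 0.08, with 4 (14.8%) above and 1 (3.7%) below, against 7.21% and 12.2%.

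Lipid genes, the subject of the study's title, gave no call. Mogat1, which makes diacylglycerol from monoacylglycerol, was too low to be tested, with means of 0.325 ± 0.152 TPM at week 2 and 0.399 ± 0.128 at week 3, that is, 3 to 10 reads per library. In triacylglycerol synthesis and lipid droplet genes 3 of 21 lay wholly above week 2 (14.3% against 15.2% of all genes), among them Plin2, a lipid droplet coat protein, at 10.6 ± 3.24 and 17.3 ± 3.30 TPM, and G0s2, an inhibitor of fat breakdown, at 1.85 ± 0.370 and 4.22 ± 0.453 TPM. In fatty acid and sterol synthesis 6 of 35 (17.1%) did, among them the desaturase Fads2 (4.46 ± 3.11 and 14.6 ± 6.68 TPM). In fatty acid uptake and oxidation 2 of 29 (6.90%) lay above and 3 (10.3%) below, and the carriers Fabp4 (22.6 ± 15.7 and 7.87 ± 6.61 TPM) and Fabp5 (35.5 ± 16.5 and 56.6 ± 9.83 TPM) overlapped. All 5 genes named here that were tested had a higher mean in tumor cells.

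Other programs gave no call. Of 42 oxidative phosphorylation genes 2 (4.76%) lay wholly above week 2 against 15.2% of all genes and the median was 0.06, or -0.06 after median-of-ratios rescaling, with Cox5b at 244 ± 40.5 and 281 ± 4.97 TPM and Ndufc2 at 71.0 ± 11.2 and 88.5 ± 8.43 TPM. Of 25 survival and apoptosis genes 3 (12%) lay above, with a median of 0.18, and Bak1, which permeabilises mitochondria, was at 43.1 ± 4.73 and 66.5 ± 17.8 TPM. Of 23 amino acid and iron transport genes 2 (8.70%) lay above and 1 (4.35%) below. Nqo1, an oxidative stress enzyme, was at 1.16 ± 0.535 and 4.25 ± 1.94 TPM and the metallothionein Mt1 at 16.7 ± 11.3 and 28.4 ± 10.9 TPM. Cox5b, Ndufc2, Bak1, Nqo1 and Mt1 each had a higher mean in tumor cells. Cytosolic ribosomal protein genes had 46 of 47 members at or below 0 and a median of -0.14, but 0 past the threshold and 0 wholly above. As deposited 6 (12.8%) lay wholly below against 5.21% of all genes, and after median-of-ratios rescaling 1 (2.13%) against 11.5%. Rps19 was at 2538 ± 234 and 2083 ± 259 TPM and Rpl30 at 852 ± 109.6 and 696 ± 152 TPM.

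**Figure D4:**
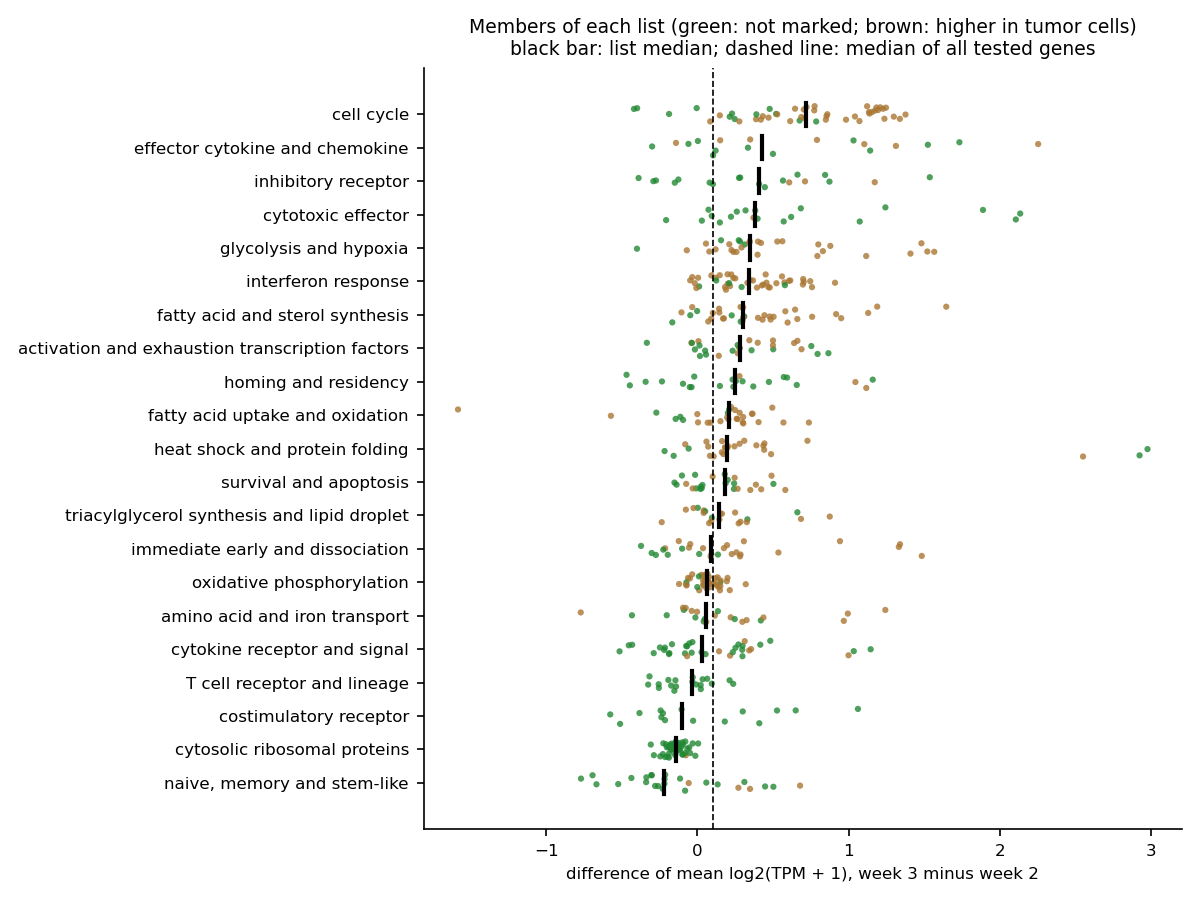
Difference of mean log2(TPM + 1), week 3 minus week 2 (horizontal axis), for every tested member of 21 T cell, program and metabolism lists (vertical axis, ordered by median); black bars are list medians, the dashed line is the median of all genes at 0.10, and brown points had a higher mean TPM in tumor cells. Cell cycle is highest at 0.72 and naive, memory and stem-like lowest at -0.22, and the points near 3 are Hspa1a and Hspa1b.

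Genes with a higher mean TPM in the 7 tumor cell libraries of weeks 2 and 3 than in the 6 CD8 T cell libraries were marked as possible carry-over of tumor RNA. The mark covered 6408 of the 13350 genes (48.0%). The 2 tables were scaled separately, so levels across them are set side by side only as a description. Of the marked genes 20.9% lay wholly above week 2 and 1.72% wholly below, with a median of 0.19. Of the unmarked genes 9.84% lay above and 8.44% below, with a median of 0.03. After median-of-ratios rescaling these shares were 14.2% and 5.18% for marked genes and 5.55% and 17.4% for unmarked ones.

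Epithelial markers were higher at week 3. Of 28 tested epithelial genes 0 passed by limma, and 21 were higher at an unadjusted p under 0.05, against 11.9% of all genes. Under each scaling 14 (50%) lay wholly above week 2 (15.2% of all genes as deposited), and the median was 1.09 as deposited. Their summed TPM over 30 genes was 183 to 445 at week 2 and 500.1 to 932 at week 3, and none of the 30 was at 0 in all 6 libraries. Krt8, a keratin of luminal cells, was at 10.7, 13.5 and 28.2 TPM and then at 38.1, 53.9 and 28.1, with overlap at the edge. Lcn2, a secreted iron-scavenging protein, was at 14.7, 39.7 and 148 TPM and then at 241, 365 and 179. Set against the tumor cell level of the same week, the median epithelial gene stood at 2.89%, 4.77% and 7.02% of it in the week 2 libraries and at 7.66%, 10.9% and 5.68% in those of week 3.

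That share, multiplied by the tumor cell level of a gene, was set beside the measured TPM. For Hspa1a the product was 2.2% to 9.69% of the measured level in the 6 libraries and for Hspa1b 2.47% to 8.99%. For Snord14c, Snord14d and Snord14e it was at most 5.98%, 7.12% and 5.24%. Its mean was 9.49 TPM higher at week 3 for Hspa1a, beside a measured difference of 449 TPM, and 11.3 TPM higher for Snord14e, beside 254 TPM. For Ddit4 it was 11.5% to 27.9% of the measured level, and 29.1 TPM higher at week 3 beside a measured difference of 103.9 TPM. For Hspb1 it was 101% to 263.5%, that is, at or above the measured level in every library. For Tnf it was 15.1% to 39.7%, for Mki67 7.23% to 20.9%, and for Gzmb at most 0.367%.

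Markers of other cell types were summed in the same way. Macrophage and monocyte genes were at 394 to 1099 TPM at week 2 and 670.0 to 1950 at week 3, with overlap and a median log2 difference of 1.08. Of 21 tested members 2 (9.52%) lay wholly above week 2, fewer than the 15.2% of all genes. After median-of-ratios rescaling the median was 0.96, and 1 member (4.76%) lay wholly above, against 9.72% of all genes. B and plasma cell genes were at 81.5 to 1008 and 258 to 1153 TPM, fibroblast genes at 703 to 1636 and 839 to 1695 TPM, and neutrophil genes at 3.52 to 71.4 and 26.3 to 88.2 TPM. CD4 and regulatory T cell genes were at 376 to 491 and 428 to 589 TPM, and gamma delta T cell genes at 26.4 to 40.7 and 34.1 to 46.4 TPM. Some genes of these sums are also in the T cell lists above. The CD4 and regulatory list includes Ikzf2, Tnfrsf4, Il2ra and Ctla4, the last at 170 to 284 and 162 to 221 TPM. Thy1 is in both the fibroblast and the T cell lineage list. Dendritic cell genes were at 1533 to 2069 and 1096 to 1363 TPM, of which Ccr7 alone held 1268 to 1803 and 847 to 1095 TPM. Their median log2 difference was 0.06, with 8 of 14 tested members above 0 and 6 at or below it. Only 1 (7.14%) lay wholly below week 2, against 5.21% of all genes. Endothelial genes were at 121 to 175 and 94.1 to 146 TPM, and mast cell and basophil genes at 7.70 to 59.4 and 16 to 25.6 TPM. Adipocyte genes were at 14.7 to 53.9 and 2.75 to 22.0 TPM, and platelet and erythroid genes at 5.40 to 6.92 and 6.11 to 10.9 TPM. The NK gene Khdc1a, the neutrophil genes Ly6g and Elane, the red cell gene Slc4a1, and the adipocyte genes Lep, Cfd and Pck1 were at 0 in all 6 libraries. No tested member of these lists passed the threshold. Their part in the levels of the cytokine, inhibitory receptor, interferon and cell cycle genes was not tested.

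**Figure D5:**
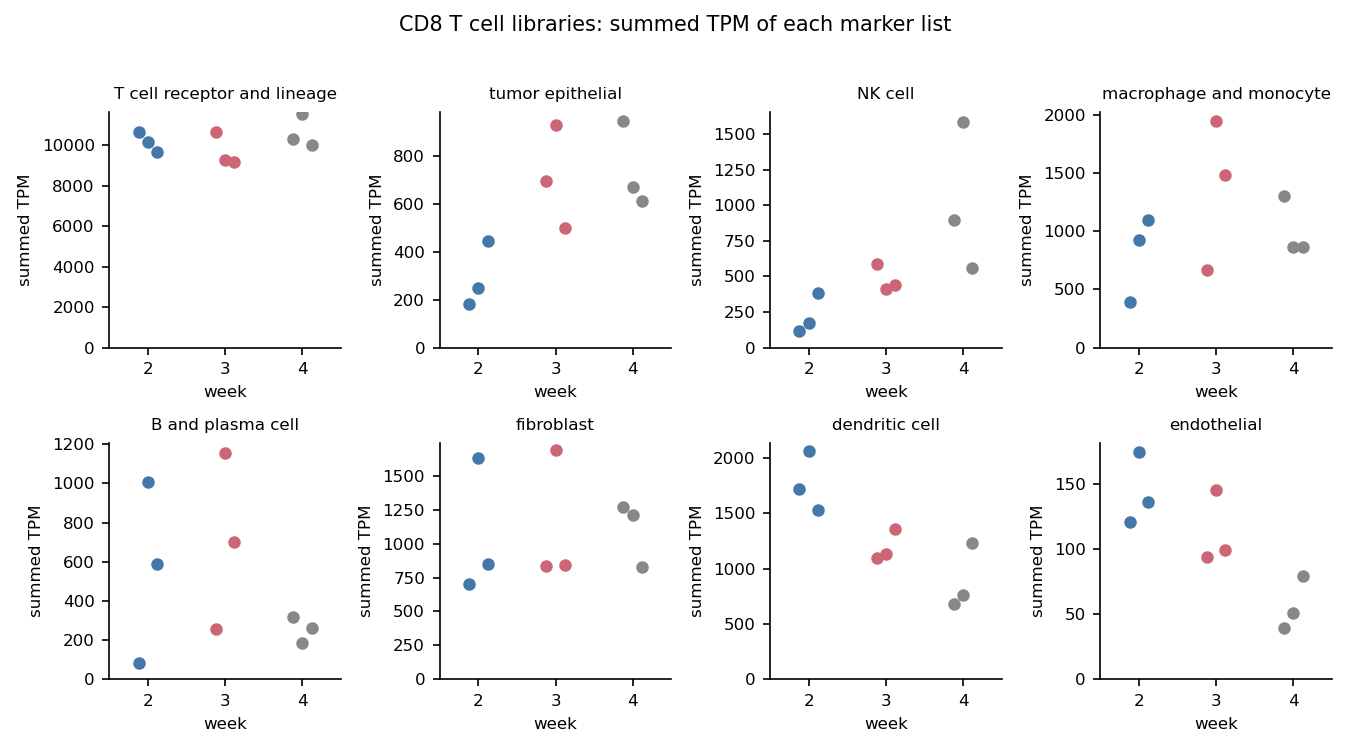
Summed TPM (vertical axes, linear from 0) of 8 marker lists by week (horizontal axes); each point is 1 of the 9 CD8 T cell libraries. T cell genes stay between 9168 and 10666 TPM at weeks 2 and 3, while epithelial genes go from 183 to 445 TPM at week 2 to 500.1 to 932 TPM at week 3 without overlap.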

How the data were processed

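The deposited values of CD8 T cells and tumor cells over time are TPM per gene symbol, as the authors made them. FastQC, Trim Galore, HISAT2 and the mm10 build are named, without versions, per the submitters' processing notes. The read counter and the annotation are not given in the sources used here. The libraries were stranded mRNA libraries from TRIZOL extracts, per the labels' protocols. Of 33681 rows, 27 whose symbol had been turned into a date were dropped (at most 0.164% of a library's TPM). Genes that reached 1 TPM in at least 3 of the 9 CD8 T cell libraries were fitted on log2(TPM + 1), all 3 weeks in 1 model, with limma 3.58.1 (lmFit, eBayes with trend) in R 4.3.3. P-values are two-sided and adjusted by Benjamini-Hochberg over 13350 genes. A log2 difference on this scale understates changes of genes with few TPM. The script was tested on simulated data.

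Whole reads were recovered from the TPM steps, where each value is a whole multiple of the value of 1 read. This gave reads within 0.01 of a whole number for 13342 of the 13350 genes (99.9%), and an added voom fit on them made 6 calls. The knockdown libraries were not used here.

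The comparison and the 34 gene lists (812 symbols, 798 matched) were chosen with earlier results of these data known, so no list is independent support. A list is described by counts and its median. Named genes were those past the threshold without overlap and with a mean of 5 TPM or more (at most 12 in a direction, or 5 among genes higher in tumor cells), up to 4 passing or otherwise the 2 most different members of each list, and a fixed set of T cell genes. Further genes, among them Hspb1, Dnajb1, Hsph1, Hsp90aa1, Hsf1, Snord14a, Snord43, Cd27, Vegfa, Egln3, Slc16a1, Cdk6, Fos, Ncr1 and Lcn2, were chosen after their values were seen. The promoter motifs and the comparison of small nucleolar RNA genes were also chosen then. Some genes that the rule names are not reported here. Promoters are from RefSeq and gene positions from GENCODE M21. Alternatives were other pseudocounts, filters and scalings, array weights, a replicate block, a fit of 2 weeks and leaving out each library.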

Additional observations from a re-analysis of the deposited data

How the results depend on the processing

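The count of 6 genes higher and 0 lower at week 3 ran from 5 to 7 higher with 0 lower under pseudocounts of 0.1 and 5, no filter on low values, a filter of 5 TPM, a fit of weeks 2 and 3 only, median-of-ratios rescaling, quantile normalization and voom on recovered reads, the last chosen after seeing the data. Leaving out 1 library gave 5 to 10 higher (10 without week 2 replicate 3) and 0 to 1 lower (1 without week 2 replicate 1, the mast cell gene Cpa3). Hspa1a, Hspa1b, Snord14c, Snord14d and Snord14e passed under each of these, and Ddit4 failed under 6 of them. Array weights, which ran from 0.341 (week 2 replicate 3) to 5.3 (week 4 replicate 3) and to 1.92 (week 2 replicate 1) within weeks 2 and 3, called 763 genes higher and 106 lower, among them Tnf (adjusted p = 0.0149), Gzmb (0.0302) and Mki67 (0.0275), and the cause was not tested. With the replicate number as a block 0 genes passed by limma (1909 higher and 331 lower at an unadjusted p under 0.05), with adjusted p = 0.0607 for Hspa1a, Hspa1b, Snord14d and Snord14e, 0.0989 for Snord14c and 0.114 for Ddit4. Whether the numbers pair the libraries is not given in the labels and could not be settled: weeks 2 and 3 share 2 numbers, whose deviations correlated at 0.426 (replicate 1) and 0.099 (replicate 3), against 0.413 between week 2 replicate 2 and week 3 replicate 3. With a mark only above 5 times the CD8 T cell level, 0 of the 6 called genes were marked, and 11.4% of all genes. With 3 libraries per week, genes such as Gzmb, whose week 2 libraries span 82.9 to 301 TPM, did not pass although their weeks did not overlap.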
